A study of Mus musculus with 3 samples.

Results

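The transforming growth factor beta (TGF-beta) ligands and receptors were followed across the cell types of the mouse palatal shelf, the paired outgrowths that form the secondary palate. The members were chosen by name, with earlier results of these data known: the ligand genes Tgfb1, Tgfb2 and Tgfb3 and the receptor genes Tgfbr1, Tgfbr2 and Tgfbr3, which are 6 of the 32285 genes in the matrices. All 6 were listed in each matrix. The data were single-cell RNA counts from palatal shelves of wild-type C57BL/6J embryos of 3 ages in days after conception, E13.5, E14.5 and E15.5. Each stage was 1 library made from 3 pooled embryos, with no other genotype or treatment. Shelves were dissociated with TrypLE and the cells were fixed in methanol before droplet capture. The labels do not state which parts of the palate each pool held.

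TGF-beta ligands are secreted in a latent form, held in the matrix by latency proteins and released by integrins and other activators. A released ligand binds the type II receptor TGFBR2, which recruits and phosphorylates the type I receptor TGFBR1, and TGFBR1 in turn phosphorylates the transducers SMAD2 and SMAD3. TGFBR3, also called betaglycan, is a co-receptor that presents ligand, above all TGF-beta 2, to TGFBR2. In the palate the pathway is best known for Tgfb3 in the medial edge epithelium, where loss of the gene prevents the shelves from fusing.

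Tgfb1 and Tgfb2 are shown first by the 250 bases before their start sites, because myeloid cells, where Tgfb1 was high, held little Tgfb2. Sequences are from RefSeq on build GRCm38.p6, written 5′ to 3′ on the strand of the gene, with motif matches on either strand in capitals. The motifs searched were the TATA box TATAAA, the GC box core GGGCGG, the E-box CACGTG and the CCAAT box CCAAT, none of which overlapped another match in these stretches.
Tgfb1: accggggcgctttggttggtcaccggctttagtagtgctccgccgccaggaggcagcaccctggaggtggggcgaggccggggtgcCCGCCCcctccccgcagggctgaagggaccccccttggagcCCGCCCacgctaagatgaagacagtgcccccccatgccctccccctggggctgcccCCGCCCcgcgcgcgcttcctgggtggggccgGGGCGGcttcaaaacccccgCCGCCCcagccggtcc
Tgfb2: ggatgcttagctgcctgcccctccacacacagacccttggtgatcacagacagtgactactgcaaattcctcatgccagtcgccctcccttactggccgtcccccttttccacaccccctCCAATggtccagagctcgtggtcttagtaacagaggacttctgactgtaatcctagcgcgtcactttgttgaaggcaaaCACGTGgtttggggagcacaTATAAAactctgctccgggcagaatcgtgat
The Tgfb1 stretch lies on the plus strand at chr7:25686752-25687001 and the Tgfb2 stretch on the minus strand at chr1:186705990-186706239. The bases are 75.2% G or C for Tgfb1 and 53.6% for Tgfb2, against a median of 52.4% over the 32851 promoters in the table. Tgfb1 holds 5 matches to GGGCGG and none to the other motifs. Tgfb2 holds a match to TATAAA that begins 31 bases before the start, one to CACGTG and one to the CCAAT box, and none to the GC box core. Of all promoters in the table, 12.4% held the TATA box motif in the same window, 32.7% the GC box core, 6.02% the E-box and 33.8% the CCAAT box. A match describes the letters only. For the receptors, Tgfbr1 holds 2 matches to the GC box core and 2 to the CCAAT box, and Tgfbr2 holds 2 to the CCAAT box. Tgfb3 and Tgfbr3 were not matched in the promoter table.

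On build GRCm38 (mm10), the GENCODE vM21 annotation places the protein-coding gene Tgfb1 (ENSMUSG00000002603) on chromosome 7 from 25687002 to 25705077. Tgfb2 (ENSMUSG00000039239) spans 186622792 to 186705989 on chromosome 1. Tgfb3 (ENSMUSG00000021253) spans 86056745 to 86079041 on chromosome 12, where it overlaps Ttll5 on the opposite strand. Tgfbr1 (ENSMUSG00000007613) spans 47353222 to 47414931 on chromosome 4. Tgfbr2 (ENSMUSG00000032440) spans 116084293 to 116175360 on chromosome 9. Tgfbr3 (ENSMUSG00000029287) spans 107106570 to 107289629 on chromosome 5.

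The matrices held 4236, 2079 and 3113 cell barcodes and 11472663, 5293977 and 8313677 unique molecular identifiers (UMIs, each standing for 1 captured RNA molecule). After filters 3583, 1750 and 2584 cells were kept, with median depths between 1614 and 1735 UMIs per barcode before filtering. At most 3 barcodes were shared between any pair of libraries. A cell was classed if it held UMIs of at least 3 of a class's 10 markers (either of 2 lists for neural cells). The best list of its lineage also had to lead any class outside that lineage by at least 1 marker. Mesenchymal, osteogenic and chondrogenic cells were 1 lineage, and each other class was its own. Within the first, a cell was osteogenic or chondrogenic if it held at least 3 markers of that list and more than of the other. A tie there left it without a class, and the rest were mesenchymal. A class cut in this way is a range of marker counts and not a type. This gave 332, 907 and 1455 mesenchymal cells, 88, 82 and 202 epithelial cells, 12, 49 and 57 endothelial cells and 17, 49 and 81 myeloid cells. It gave 1945, 112 and 169 neural cells, 18, 30 and 41 glial cells and 128, 125 and 59 chondrogenic cells. Of 2694 mesenchymal cells 569 sat at the minimum of 3 markers, and of 372 epithelial cells 131 did. In mesenchymal cells the median count was 5 mesenchymal markers, 1 osteogenic marker and 0 markers of every other class. The medians in epithelial, endothelial and myeloid cells were 0 for the markers of the other classes. Glial cells held a median of 5 glial markers with 2 mesenchymal markers and 1 each of the chondrogenic and neural progenitor lists. Chondrogenic cells held a median of 6 chondrogenic markers with 3 mesenchymal and 1 neuronal. The part of these other markers in the glial and chondrogenic contrasts was not tested. Left without a class were 1017, 310 and 416 cells.

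The E13.5 library stood apart. Neural cells made up 54.3% of it, against 6.4% at E14.5 and 6.54% at E15.5, although the label is palatal shelf. Its mesenchymal cells also fell in other clusters than the later ones: 64.8% were in cluster 4, led by Ccl21a, Gpr20, Mogat1 and Otor, which held 12.3% of the mesenchymal cells at E14.5. Levels are given as UMIs per 1000000 UMIs of the summed cells of a class (CPM), with exact Poisson 95% intervals, which cover counting error only. The stages have no replicate libraries, so differences between stages were not tested. Cell types were compared over the 3 libraries with edgeR's quasi-likelihood test, with the library as a block and Benjamini-Hochberg adjustment over all genes.

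Of 30 tests of a member in one of 6 contrasts with mesenchymal cells, 19 passed an adjusted p of 0.05, with 7 members higher and 12 lower. A further 6 pairs of member and contrast were below the filter on low counts. In the epithelial contrast 2 of 5 members tested were called, both lower, where 35.7% of all 9449 genes tested were called (17.3% higher and 18.5% lower). In the endothelial contrast 3 of 5 were called, against 19.3% of 8025 genes (9.86% higher and 9.47% lower). In the myeloid contrast 5 of 5 were called, against 39% of 8082 genes (16.6% higher and 22.4% lower). The neural contrast called 5 of 6, against 21.9% of 11279 genes (11.4% higher and 10.5% lower). The glial contrast called 3 of 4, against 14.2% of 7452 genes (6.35% higher and 7.86% lower). All 3 glial calls were lost without the E15.5 library, a fit that called 311 genes. The chondrogenic contrast called 1 of 5, against 4.59% of 8934 genes (2.35% higher and 2.24% lower). The epithelial share of 2 in 5 was near its background.

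**Figure D1:**
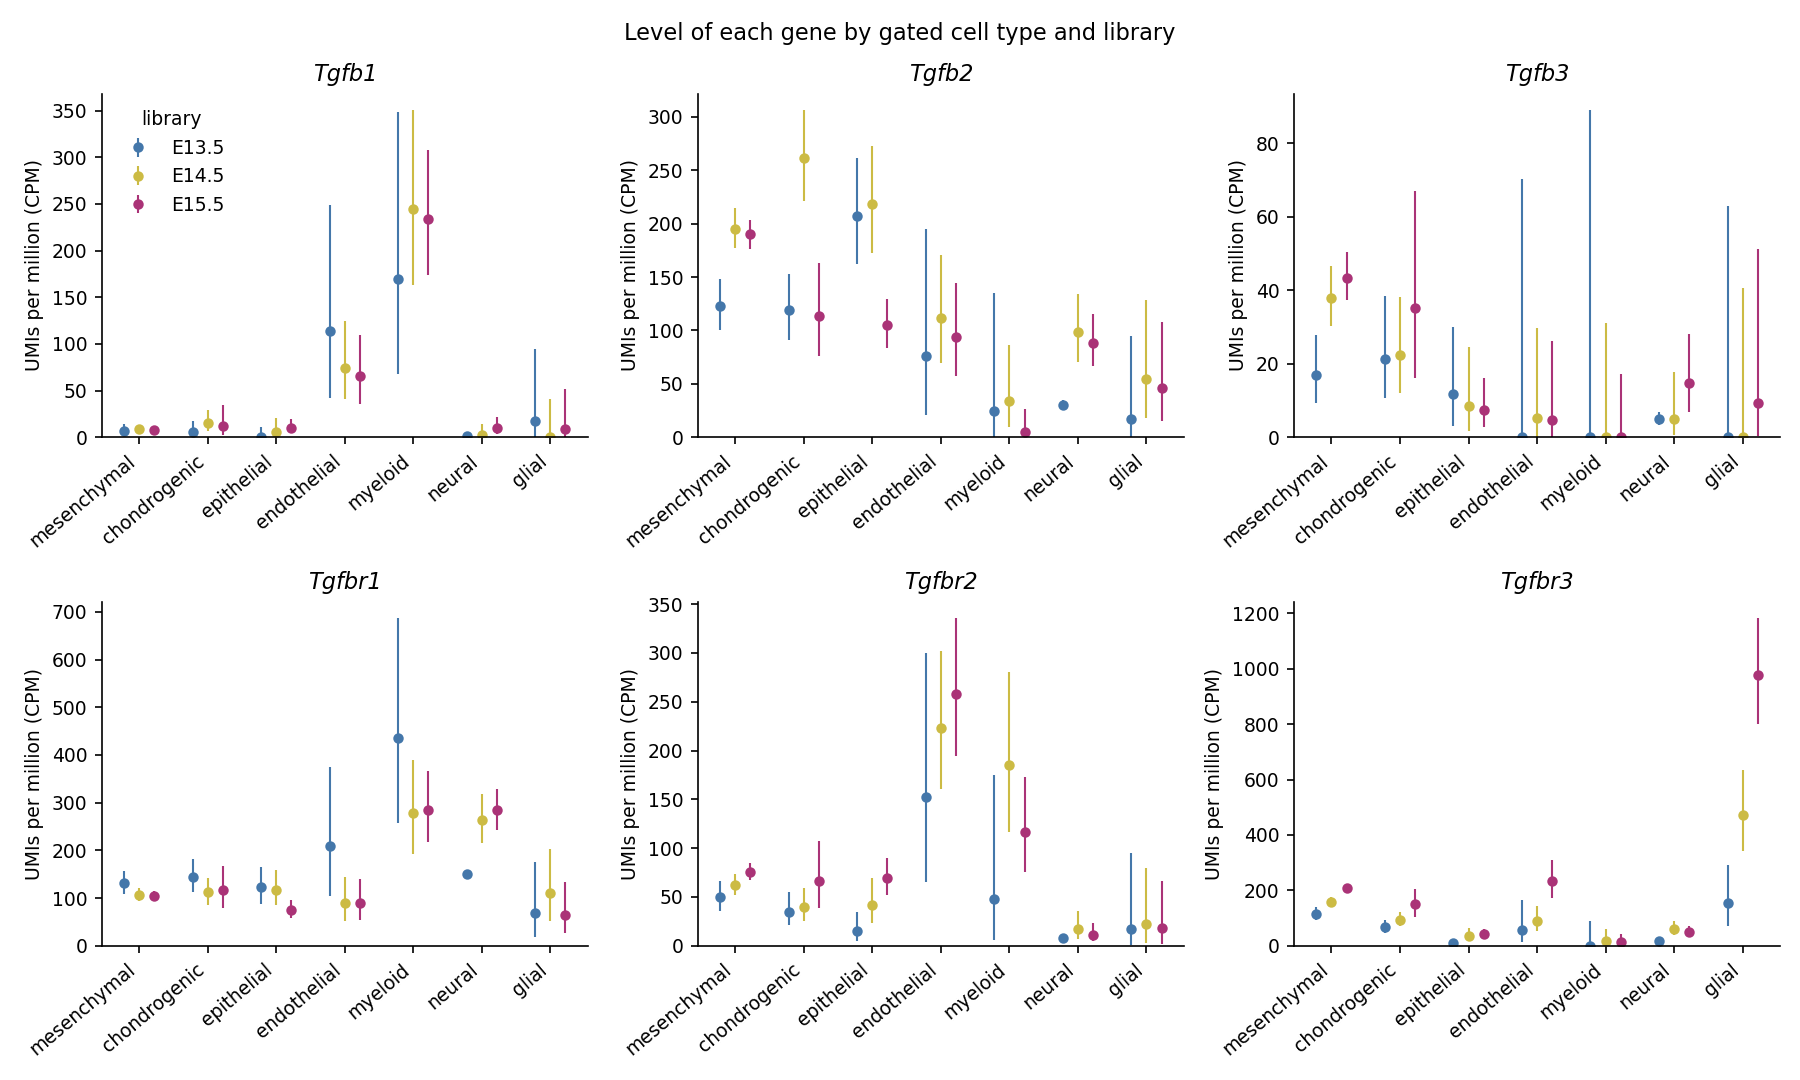
Level of each of the 6 genes (y axis, CPM) in 7 gated cell types (x axis) in the E13.5, E14.5 and E15.5 libraries; points are single libraries and bars are exact Poisson 95% intervals. Tgfb1 is high in myeloid and endothelial cells, Tgfb2 in mesenchymal, chondrogenic and epithelial cells, and Tgfbr3 in glial cells, where it goes from 154 CPM at E13.5 to 977 CPM at E15.5.

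Tgfb1, the ligand best known from immune and vascular cells, was found mainly in myeloid and endothelial cells. Its level in myeloid cells over the 3 stages, given here and below from the earliest to the latest, was 169, 244 and 234 CPM. In endothelial cells it was 114, 74.5 and 65.6 CPM, and in mesenchymal cells 6.75, 8.45 and 7.65 CPM. The myeloid, endothelial and mesenchymal ranges did not overlap, with myeloid cells above endothelial cells and both above all mesenchymal values. Tgfb1 was 28.1-fold higher in myeloid than in mesenchymal cells (log2 difference 4.81 ± 0.40 SE, n = 3 libraries, adjusted p = 2.9e-31, edgeR's quasi-likelihood test) and higher in 3 of 3 libraries. In endothelial cells it was 9.75-fold higher (log2 difference 3.29 ± 0.39 SE, n = 3 libraries, adjusted p = 1.5e-05, edgeR's quasi-likelihood test), again in 3 of 3 libraries.

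Tgfb1 levels over the libraries summed were lower in the other classes. Osteogenic cells, gated on bone genes such as Runx2 and Sp7, held 30.7 CPM at E14.5 and 33.1 CPM a day later. In epithelial cells the counts were 0, 2 and 8 UMIs, and in glial cells 1, 0 and 1. With every cell thinned to 1500 UMIs, the share of mesenchymal cells with a Tgfb1 UMI was 0.889%, 1.22% and 1.15%. The share in neural cells, given for comparison, was 0.343%, 0% and 1.61%, and the upper limit of the exact interval at E14.5 was 4.4%. The ranges of the mesenchymal and neural shares overlapped. Over the libraries summed, Tgfb1 was 7.79 CPM in mesenchymal cells (5.89 to 10.1) and 2.43 CPM in neural cells (1.47 to 3.8), and the counting intervals did not overlap. The contrast over libraries was not called (log2 difference -0.85 ± 0.65 SE, adjusted p = 0.40, edgeR's quasi-likelihood test), and neural cells were the higher in 1 of 3 libraries. Unthinned shares in mesenchymal cells were 1.81%, 1.87% and 2.06%, at median depths between 1913 and 2226 UMIs, and in neural cells 0.514%, 0.893% and 2.37%, at 2247 to 2442 UMIs. In myeloid cells the thinned share was 44.4% of 9 cells, 24.1% of 29 and 28.3% of 46.

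Tgfb2, the ligand that depends most on betaglycan, was at a high level in mesenchymal, chondrogenic and epithelial cells, and in the few muscle cells. Mesenchymal cells held 123, 195 and 190 CPM over the 3 stages, from 109, 439 and 769 UMIs. Epithelial cells held 208, 218 and 105 CPM, and chondrogenic cells 119, 261 and 114 CPM. These 3 classes overlapped, and no difference from mesenchymal cells was called for epithelial cells (log2 difference -0.05 ± 0.26 SE, adjusted p = 0.90, edgeR's quasi-likelihood test) or chondrogenic cells (-0.03 ± 0.19 SE, adjusted p = 0.98). The sign of the epithelial value turned in 4 alternatives, reaching 0.44 without the E15.5 library, and was called in none of them.

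Tgfb2 was lower than in mesenchymal cells in myeloid, neural and glial cells. Myeloid cells held 24.2, 33.7 and 4.67 CPM, from 1, 4 and 1 UMIs, all below the lowest mesenchymal value (11.1-fold lower, log2 difference -3.47 ± 0.53 SE, adjusted p = 8.3e-10, edgeR's quasi-likelihood test). Neural cells held 30.6, 98.4 and 88.6 CPM (log2 difference -1.32 ± 0.24 SE, adjusted p = 0.012), from 208, 40 and 54 UMIs. Those in cluster 2, described below with Tgfbr1, gave 5, 7 and 14 of these UMIs from 35, 83 and 122 cells, at 38.5, 33.1 and 39.3 CPM, so most UMIs of the later stages came from the neural cells outside it. Glial cells held 17.1, 54.9 and 46.1 CPM (log2 difference -2.06 ± 0.39 SE, adjusted p = 0.0023). Neural and glial cells were lower than mesenchymal cells in 3 of 3 libraries, although the glial call was lost without the E15.5 library (adjusted p = 0.064).

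The endothelial difference in Tgfb2 was smaller and less stable. Endothelial cells held 76.1, 112 and 93.7 CPM, below mesenchymal cells in each library (log2 difference -0.86 ± 0.26 SE, adjusted p = 0.031, edgeR's quasi-likelihood test). The call was lost without the E14.5 library (adjusted p = 0.13), without the E15.5 library (0.24), with DESeq2 (0.14) and with no doublets left out (0.16). In thinned cells, 12.4%, 23.1% and 21.6% of mesenchymal cells held a Tgfb2 UMI, against 1 of 9, 1 of 29 and 0 of 46 myeloid cells, the background for this gene. Unthinned shares were 21.1%, 28.4% and 29.9% of mesenchymal cells. Those of myeloid cells were 5.88%, 6.12% and 1.23%, at median depths of 1760 to 1846 UMIs. Muscle cells, of which there were 10, 14 and 8, held 212, 294 and 260 CPM, with no test because too few were gated.

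Tgfb3, the ligand needed in the palatal epithelium for fusion, was found mainly in mesenchymal, osteogenic and chondrogenic cells. Mesenchymal cells held 16.9, 37.8 and 43.5 CPM, from 15, 85 and 176 UMIs, and chondrogenic cells 21.4, 22.4 and 35.3 CPM. Osteogenic cells held 47.4 CPM and then 62 CPM at the later stages, and were too few at E13.5 for a test. The chondrogenic difference was not called (log2 difference -0.33 ± 0.30 SE, adjusted p = 0.69, edgeR's quasi-likelihood test).

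Epithelial cells held 13 Tgfb3 UMIs in all, in 11 of 372 cells. Their levels were 11.7, 8.4 and 7.39 CPM, each below the mesenchymal value of the same library. The difference was 4.07-fold (log2 difference -2.03 ± 0.42 SE, n = 3 libraries, adjusted p = 0.0033, edgeR's quasi-likelihood test), and without the E15.5 library it was -1.45 and no longer called (adjusted p = 0.0945). No marker list set apart cells of the medial edge, so the level there was not measured. Neural cells held 4.86, 4.92 and 14.8 CPM (log2 difference -1.84 ± 0.34 SE, adjusted p = 0.012), a call lost without the E14.5 library (adjusted p = 0.066).

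Myeloid cells gave 0 Tgfb3 UMIs among 147 cells, and 3 counts would be 72.5, 25.3 and 14 CPM at the 3 stages. At E14.5 and E15.5 these limits are below the mesenchymal values, and at E13.5 the limit is above, so a difference was not detectable there. Endothelial cells gave 0, 1 and 1 Tgfb3 UMIs and glial cells 0, 0 and 1. The thinned share of mesenchymal cells with a Tgfb3 UMI was 1.33%, 4.34% and 6.93%, and the unthinned share 3.92%, 7.94% and 10.4%. Ttll5, which overlaps Tgfb3 on the other strand, had 1182 UMIs over all cells, and the sources used here do not state how reads in the overlap were assigned.

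Tgfbr1, the type I kinase that starts the intracellular signal, was found in every class compared here. Mesenchymal cells held 131, 106 and 104 CPM, epithelial cells 123, 118 and 75.1, and chondrogenic cells 144, 112 and 118. Endothelial cells held 209, 90.4 and 89 CPM, and glial cells 68.2, 110 and 64.5 CPM. Each of these ranges overlapped with the mesenchymal one, while those of glial and chondrogenic cells did not overlap with each other. No difference from mesenchymal cells was called in the epithelial, endothelial, glial or chondrogenic contrast, with adjusted p from 0.46 to 0.997 by edgeR's quasi-likelihood test.

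Myeloid and neural cells held more Tgfbr1. Myeloid levels were 435, 278 and 285 CPM, all above the highest mesenchymal value (2.72-fold higher, log2 difference 1.45 ± 0.31 SE, adjusted p = 1.9e-05, edgeR's quasi-likelihood test). Neural levels were 150, 263 and 284 CPM, also all above mesenchymal cells (log2 difference 1.05 ± 0.27 SE, adjusted p = 0.036). The neural call was lost without the E14.5 library (log2 difference 0.88, adjusted p = 0.21) and without the E15.5 library (0.81, adjusted p = 0.18). The neural cells differed between stages in what they were. At E14.5 and E15.5, 74.1% and 72.2% of them lay in cluster 2, led by Fstl5 and with Gng13, a G protein gene of olfactory sensory neurons, among its top genes, against 1.80% of the 1945 neural cells of E13.5. Within cluster 2 the Tgfbr1 level was 508, 345 and 376 CPM in 35, 83 and 122 neural cells, with a fold of 0.741 from the first stage to the last (counting interval 0.548 to 1.01), so the higher level of the later stages was not seen inside that cluster, a subset chosen after the data had been seen. Cluster 2 held 385 CPM of Tgfbr1 (95% interval 344 to 429). Cluster 9, with 39.4% of the E13.5 neural cells, held 124 CPM (110 to 140), and cluster 8, led by the cortical genes Neurod6, Neurod2 and Tbr1, held 87.6 CPM.

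Tgfbr2, the ligand-binding type II receptor, was highest in endothelial cells. Endothelial levels were 152, 223 and 258 CPM, above mesenchymal levels of 49.5, 62.2 and 75.6 CPM at each stage and with no overlap. The difference was 3.46-fold (log2 difference 1.79 ± 0.24 SE, n = 3 libraries, adjusted p = 5.0e-05, edgeR's quasi-likelihood test). Endothelial cells thus held more of both Tgfb1 and Tgfbr2 than mesenchymal cells in 3 of 3 libraries.

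Of the 7 classes compared, neural cells had the lowest Tgfbr2 levels, at 7.8, 17.2 and 11.5 CPM, below every mesenchymal value (5.30-fold lower, log2 difference -2.41 ± 0.28 SE, adjusted p = 0.0026, edgeR's quasi-likelihood test). Neural cells thus held more Tgfbr1 and less Tgfbr2 than mesenchymal cells. The thinned share with a Tgfbr2 UMI was 0.549%, 1.22% and 0.806% in neural cells, the background for this gene. It was 5.33%, 7.47% and 10.8% in mesenchymal cells and 12.5%, 27.8% and 42.5% in endothelial cells. Unthinned, it was 10.5%, 11.6% and 16.9% in mesenchymal cells and 41.7%, 42.9% and 49.1% in endothelial cells.

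Myeloid cells held 48.3, 185 and 117 CPM of Tgfbr2, higher than mesenchymal cells in 2 of 3 libraries. This was called (log2 difference 0.92 ± 0.36 SE, adjusted p = 0.031, edgeR's quasi-likelihood test), but not without the E14.5 library (0.31, adjusted p = 0.72), without the E15.5 library (adjusted p = 0.21), with DESeq2 (0.31) or with no filter (0.12). Glial cells held 17.1, 22 and 18.4 CPM from 5 UMIs in all (log2 difference -1.73 ± 0.54 SE, adjusted p = 0.048), and this call was lost in 5 alternatives, without the E14.5 library (adjusted p = 0.17) and without the E15.5 library (0.38) among them. The epithelial levels of 14.6, 42 and 69 CPM were below mesenchymal cells in 3 of 3 libraries without a call (log2 difference -0.56 ± 0.27 SE, adjusted p = 0.13). That difference was called with no filter (adjusted p = 0.038) and with Leiden clusters (0.047).

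Tgfbr3, the betaglycan co-receptor, had its highest mean over the libraries in glial cells, followed by mesenchymal cells. At E15.5 endothelial cells, at 234 CPM, were above mesenchymal cells. Mesenchymal cells held 116, 159 and 207 CPM. Glial cells, gated on Schwann-lineage markers, held 154, 472 and 977 CPM, from 9, 43 and 106 UMIs, above mesenchymal cells at each stage. The glial difference was 3.01-fold (log2 difference 1.59 ± 0.32 SE, n = 3 libraries, adjusted p = 0.0037, edgeR's quasi-likelihood test) and fell to 1.09 and lost its call without the E15.5 library (adjusted p = 0.21). The classes overlapped in range, because the E13.5 glial value was below the mesenchymal values of E14.5 and E15.5.

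Tgfbr3 was low in epithelial, myeloid and neural cells. Epithelial levels were 8.77, 36.4 and 43.1 CPM, with no overlap with mesenchymal cells (5.48-fold lower, log2 difference -2.46 ± 0.25 SE, adjusted p = 2.5e-05, edgeR's quasi-likelihood test). Myeloid counts were 0, 2 and 3 UMIs (log2 difference -3.76 ± 0.56 SE, adjusted p = 2.2e-10), and neural levels 16.5, 61.5 and 49.2 CPM (log2 difference -2.07 ± 0.29 SE, adjusted p = 0.0046). The epithelial, myeloid and neural calls held without each library in turn.

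Chondrogenic cells held 66.2, 94.6 and 149 CPM of Tgfbr3, below mesenchymal cells at each stage (log2 difference -0.68 ± 0.15 SE, adjusted p = 0.030, edgeR's quasi-likelihood test). Leaving out the E13.5, E14.5 or E15.5 library ended this call (adjusted p = 0.11, 0.16 and 0.060). Endothelial levels of 57.1, 90.4 and 234 CPM spanned the mesenchymal range and were not called (adjusted p = 0.54). The thinned share of mesenchymal cells with a Tgfbr3 UMI was 12.9%, 17.9% and 22.9%, against 0 of 9, 0 of 29 and 1 of 46 myeloid cells. Unthinned, the mesenchymal share was 19.9%, 25.8% and 34.2%, and the myeloid share 0%, 4.08% and 2.47%.

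**Figure D2:**
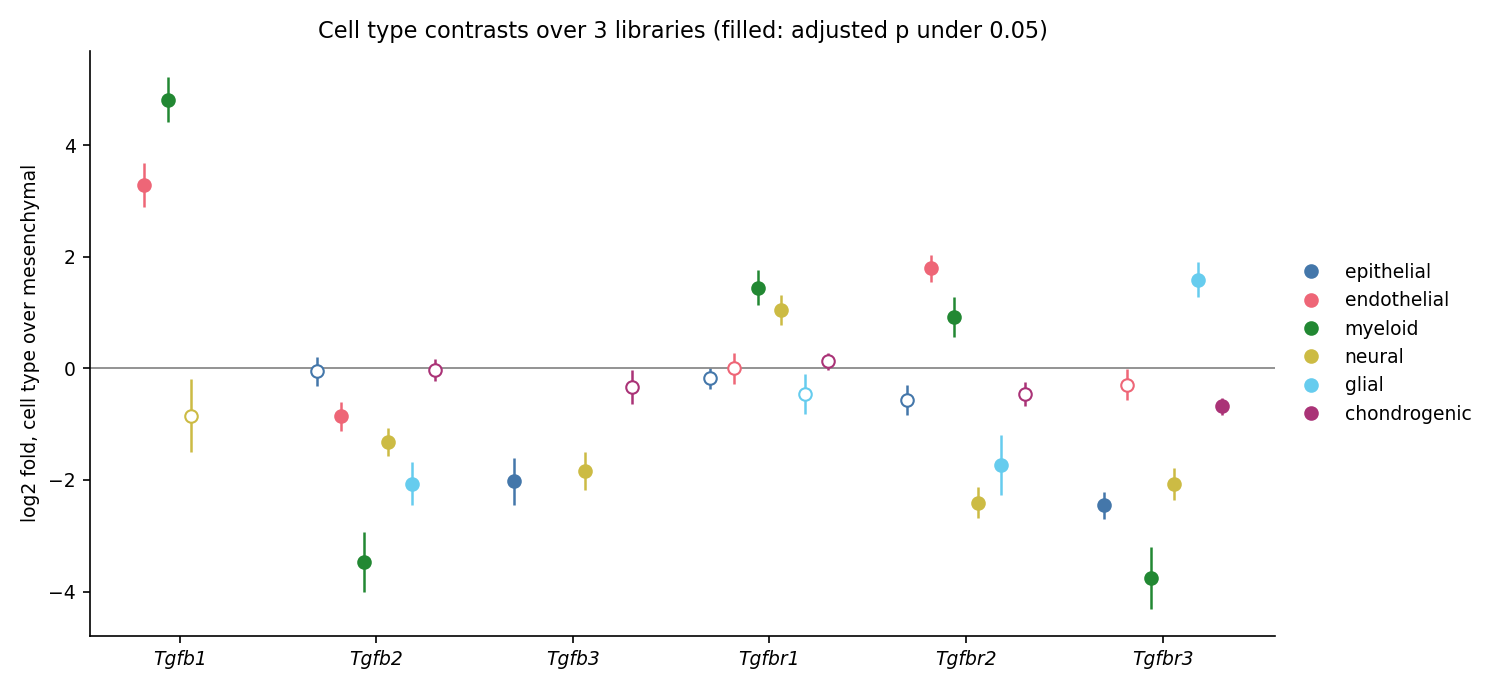
Log2 fold of each gene in 6 cell types over mesenchymal cells (y axis; positive is higher in the cell type), estimated over 3 libraries with SE bars. Filled points passed an adjusted p of 0.05; Tgfb1 in myeloid cells (4.81) and Tgfbr3 in myeloid cells (-3.76) are the farthest from 0 above and below.

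Ordered by the mean over libraries, neighbouring classes were often not separated. For Tgfb1, myeloid cells (216 ± 40.7 CPM, SD, n = 3) and endothelial cells (84.7 ± 25.9) stood clear of each other and of the rest, and the ranges from chondrogenic down to neural cells overlapped. For Tgfb2, the first 3 classes overlapped among themselves and chondrogenic cells did not overlap with endothelial cells, the next in the order. Epithelial cells, the first in the order, did overlap with endothelial cells (105 to 218 against 76.1 to 112 CPM). For Tgfb3, the gap lay between chondrogenic and epithelial cells. For Tgfbr1 and Tgfbr2, each class overlapped with the next in the order. For Tgfbr3, chondrogenic cells did not overlap with neural cells, the next in the order. Endothelial cells, ranked above both, did overlap with neural cells (57.1 to 234 against 16.5 to 61.5 CPM).

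Epithelial cells were divided by their markers into stratified cells (Krt5, Krt14 and other genes of layered epithelium, 17, 37 and 114 cells) and simple nasal cells (Krt8, Foxj1 and others, 50, 35 and 74 cells), and 45 cells fell in neither. The Tgfb2 level was 49.5, 108 and 57.9 CPM in stratified cells and 269, 322 and 131 CPM in simple nasal cells. Simple nasal cells were above stratified cells in every library and the ranges did not overlap. Over the libraries summed, the level in stratified cells was 0.313 of that in simple nasal cells (counting interval 0.216 to 0.445).

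Tgfbr2 and Tgfbr3 went the other way in the epithelium. Tgfbr2 was 49.5, 92.4 and 103 CPM in stratified cells and 4.89, 15.6 and 39.1 CPM in simple nasal cells, a fold of 4.00 over the libraries summed (2.31 to 7.22). Tgfbr3 counts were 2, 10 and 29 UMIs in stratified cells and 0, 1 and 6 in simple nasal cells, a fold of 7.52 (3.34 to 19.9). Both receptors were higher in stratified cells in 3 of 3 libraries. Tgfbr1 gave a fold of 1.02 (0.700 to 1.48), and of the 13 Tgfb3 UMIs 1 was in stratified and 11 in simple nasal cells. These differences were not tested beyond their counting intervals. The clusters, which were made without the 6 genes, showed the same order: cluster 19, led by Krtdap and Krt13, held 53.1 CPM of Tgfb2 and 80.4 CPM of Tgfbr3, and cluster 1, led by Bpifa1, 269 CPM and 11.9 CPM.

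**Figure D3:**
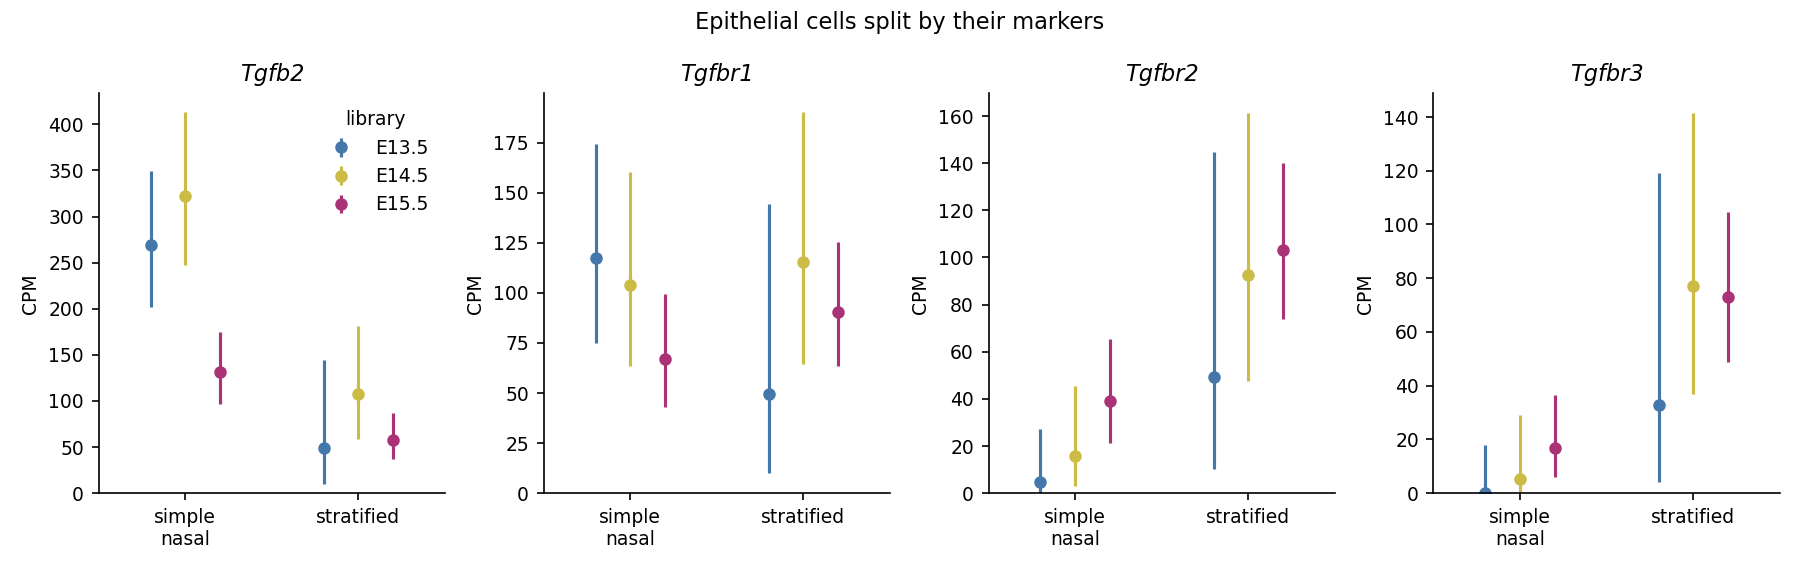
Levels (CPM, y axis) of Tgfb2, Tgfbr1, Tgfbr2 and Tgfbr3 in simple nasal and stratified epithelial cells of each library, with exact Poisson 95% intervals. Tgfb2 is higher in simple nasal cells, and Tgfbr2 and Tgfbr3 in stratified cells, in all 3 libraries; Tgfbr1 shows no such order.

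Between stages, in mesenchymal cells, Tgfb2, Tgfb3, Tgfbr2 and Tgfbr3 had higher levels in the E15.5 library than in the E13.5 library and Tgfbr1 a lower one. Fewer transcripts per cell and fewer cells with the transcript cannot be told apart from summed counts. The fold was 1.55 for Tgfb2 (counting interval 1.26 to 1.91), 2.57 for Tgfb3 (1.52 to 4.70), 1.53 for Tgfbr2 (1.11 to 2.14) and 1.78 for Tgfbr3 (1.45 to 2.21). For Tgfbr1 it was 0.796 (0.647 to 0.986), and for Tgfb1 1.13 (0.466 to 3.32). Of the 5 members that reached 20 CPM, 1 was past 2-fold, Tgfb3, where 14.4% of 8073 genes were past 2-fold either way. Tgfb3 was under 20 CPM at E13.5 (16.9 CPM) and entered the count only through the later library (43.5 CPM at E15.5). The same 1 of 5 was past 2-fold from E13.5 to E14.5 (2.24, 1.28 to 4.17), against 10.8% of 8051 genes, and 0 of 5 from E14.5 to E15.5, against 1.62% of 7785 genes. Between those last stages the Tgfbr3 interval was the only one of the 6 to exclude 1, with a fold of 1.30 (1.15 to 1.48).

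These ratios rest on the E13.5 library, whose mesenchymal cells lay mostly in cluster 4. Inside cluster 4, with 215 cells at E13.5 and 113 at E15.5, Tgfb2 was 134 CPM at E13.5 and 86.5 CPM at E15.5, a fold of 0.647 (0.356 to 1.12). The higher Tgfb2 level at E15.5 was therefore not seen in that cluster. Tgfbr2 gave a fold of 2.13 there (1.15 to 3.90), Tgfbr3 1.61 (1.05 to 2.44) and Tgfb3 1.57 (0.404 to 5.45), from 8 UMIs at E13.5 and 5 at E15.5 (16.2 and 25.4 CPM). This subset was chosen after the data had been seen.

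In epithelial cells, Tgfb2 and Tgfbr1 had lower levels in the E15.5 library than in the E13.5 library and Tgfbr2 and Tgfbr3 higher ones. The fold was 0.504 for Tgfb2 (0.364 to 0.701), 0.612 for Tgfbr1 (0.406 to 0.929), 4.72 for Tgfbr2 (1.91 to 15.1) and 4.92 for Tgfbr3 (1.55 to 25). The Tgfbr2 and Tgfbr3 folds rest on 5 and 3 UMIs at E13.5. Of the 4 members that reached 20 CPM, 2 were past 2-fold, Tgfbr2 and Tgfbr3, where 23.4% of 8319 genes were. Both were under 20 CPM at E13.5 (14.6 and 8.77 CPM) and entered the count only through the later library. These 2 of 4 were also past 2-fold from E13.5 to E14.5, against 23.2% of 8256 genes. Between the later stages it was 1 of 4, Tgfb2 (0.479, 0.348 to 0.660), against 11.9% of 8229 genes. That log2 ratio of -1.05 became -0.38 with the stricter gate, and with the looser gate too it was under 2-fold. With Leiden clusters in place of gates, the Tgfb2 log2 ratio from E13.5 to E15.5 became -0.38, from -0.98. These shares come from few members. The makeup of the class moved as well: cluster 1 held 69.3% of the epithelial cells at E13.5 and 39.6% at E15.5, and cluster 19 held 18.2% and 56.9%. Within simple nasal cells alone the Tgfb2 fold was 0.488 (0.323 to 0.734). In stratified cells it was 1.17 (0.353 to 6.09), from 3 UMIs at E13.5. The Tgfbr2 fold was 2.09 in stratified cells (0.665 to 10.5), from 3 UMIs at E13.5, and 7.996 in simple nasal cells (1.22 to 338.1), from 1. The Tgfbr3 fold in stratified cells was 2.21 (0.560 to 19.1), from 2 UMIs at E13.5, and simple nasal cells went from 0 to 6 UMIs, which allows a fold down to 0.672. Of these 4 receptor intervals, only that of Tgfbr2 in simple nasal cells excluded 1. The Tgfbr1 fold was 0.571 in simple nasal cells (0.311 to 1.05) and 1.83 in stratified cells (0.579 to 9.29), and both intervals included 1.

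**Figure D4:**
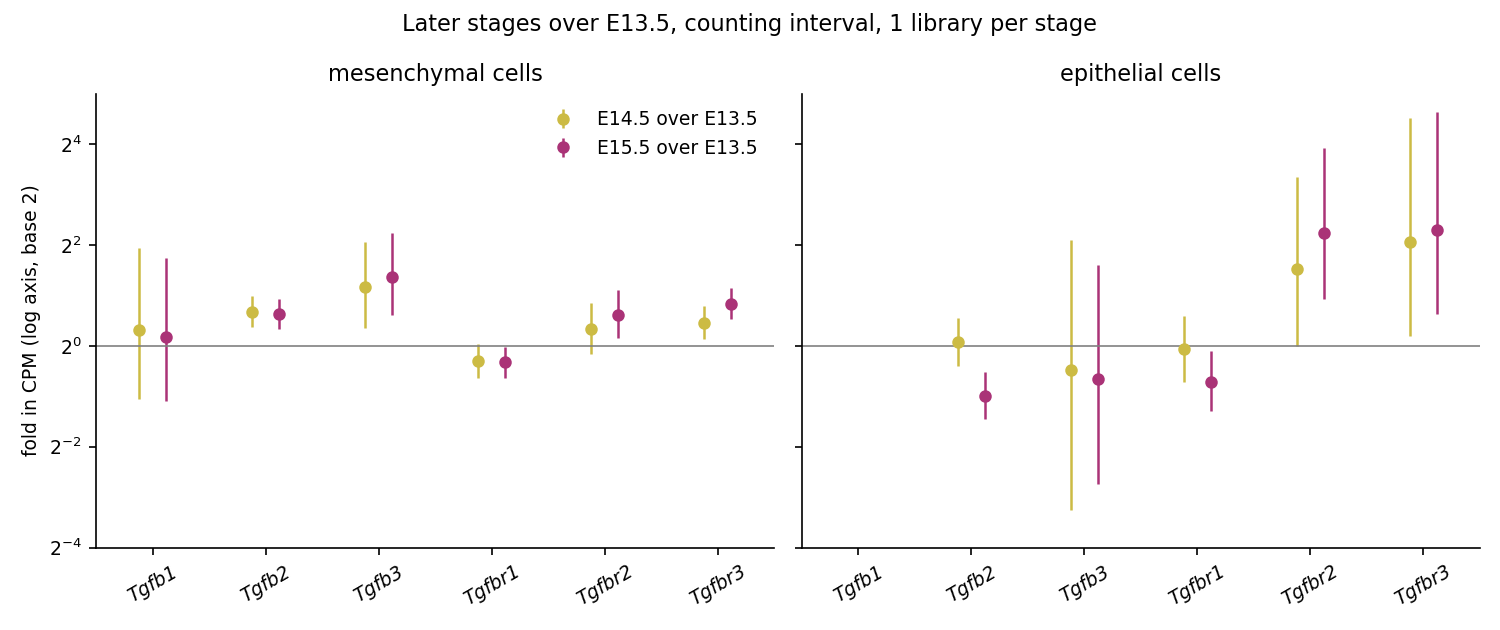
Fold in CPM of E14.5 and of E15.5 over E13.5 (y axis, log scale) for each gene in mesenchymal and in epithelial cells, with exact counting intervals that do not cover differences between embryos or libraries. Tgfb2 at E15.5 is above 1 in mesenchymal cells and below 1 in epithelial cells; Tgfb1 in epithelial cells has 0 UMIs at E13.5 and is not drawn.

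In other classes, glial Tgfbr3 had a fold of 6.36 from E13.5 to E15.5 (3.23 to 14.3) and of 2.07 from E14.5 to E15.5 (1.44 to 3.02). Glial cells of all stages lay in 1 cluster, cluster 11, which held 88.9%, 100% and 97.6% of them, and within it the fold was 5.24 (2.66 to 11.8). Endothelial Tgfbr3 had a fold of 4.10 from E13.5 to E15.5 (1.33 to 20.6), from 3 UMIs at E13.5, and of 2.59 from E14.5 (1.47 to 4.79). Chondrogenic Tgfb2 was 2.20-fold higher at E14.5 than at E13.5 (1.63 to 3.01) and then 0.435 of that at E15.5 (0.282 to 0.651). The makeup of that class moved too, with 75.8%, 55.2% and 52.5% of its cells in cluster 12, led by Matn1 and Col2a1. Inside cluster 12, which gave 29 of the 152 UMIs of E14.5, the folds for these pairs of stages were 1.25 (0.745 to 2.09) and 0.584 (0.263 to 1.204), and both intervals included 1. This subset, too, was chosen after the data had been seen. Tgfbr3 thus had a higher level at E15.5 than at E13.5, with an interval above 1, in mesenchymal, epithelial, glial, endothelial, chondrogenic and neural cells, each taken as a whole class. Inside neural cluster 2 it was 15.4, 18.9 and 19.7 CPM, from 2, 4 and 7 UMIs, a fold of 1.28 from the first stage to the last (0.243 to 12.6), against 2.98 in all neural cells (1.93 to 4.50). Inside chondrogenic cluster 12 the fold was 2.10 (0.987 to 4.42), against 2.25 in the whole class. The Tgfbr3 intervals inside neural cluster 2, chondrogenic cluster 12 and both epithelial subsets included 1.

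Within the mesenchymal lineage the clusters differed in Tgfbr3. Over the libraries summed, it was 297 CPM (263 to 335) in cluster 17, with Pax3 among its top genes, and 274 CPM (241 to 311) in cluster 16, with the homeobox gene Meox2 among them. It was 92.3 CPM (74.9 to 112) in cluster 14, and 114 CPM (97.2 to 133) in the osteogenic cluster 21, led by Ibsp and Dqx1. Cluster 17 also held 107 CPM of Tgfbr2 (87.2 to 131), against 39.6 CPM (28.5 to 53.5) in cluster 14. Tgfb3 was 57.3 CPM (45.6 to 71.0) in cluster 21 and 24.1 CPM (16.7 to 33.7) in cluster 4, and Tgfb2 ranged from 117 CPM in cluster 22 to 234 CPM in cluster 17. Clusters 17 and 16 held 18 and 1 cells at E13.5, so cluster and stage are partly confounded.

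**Figure D5:**
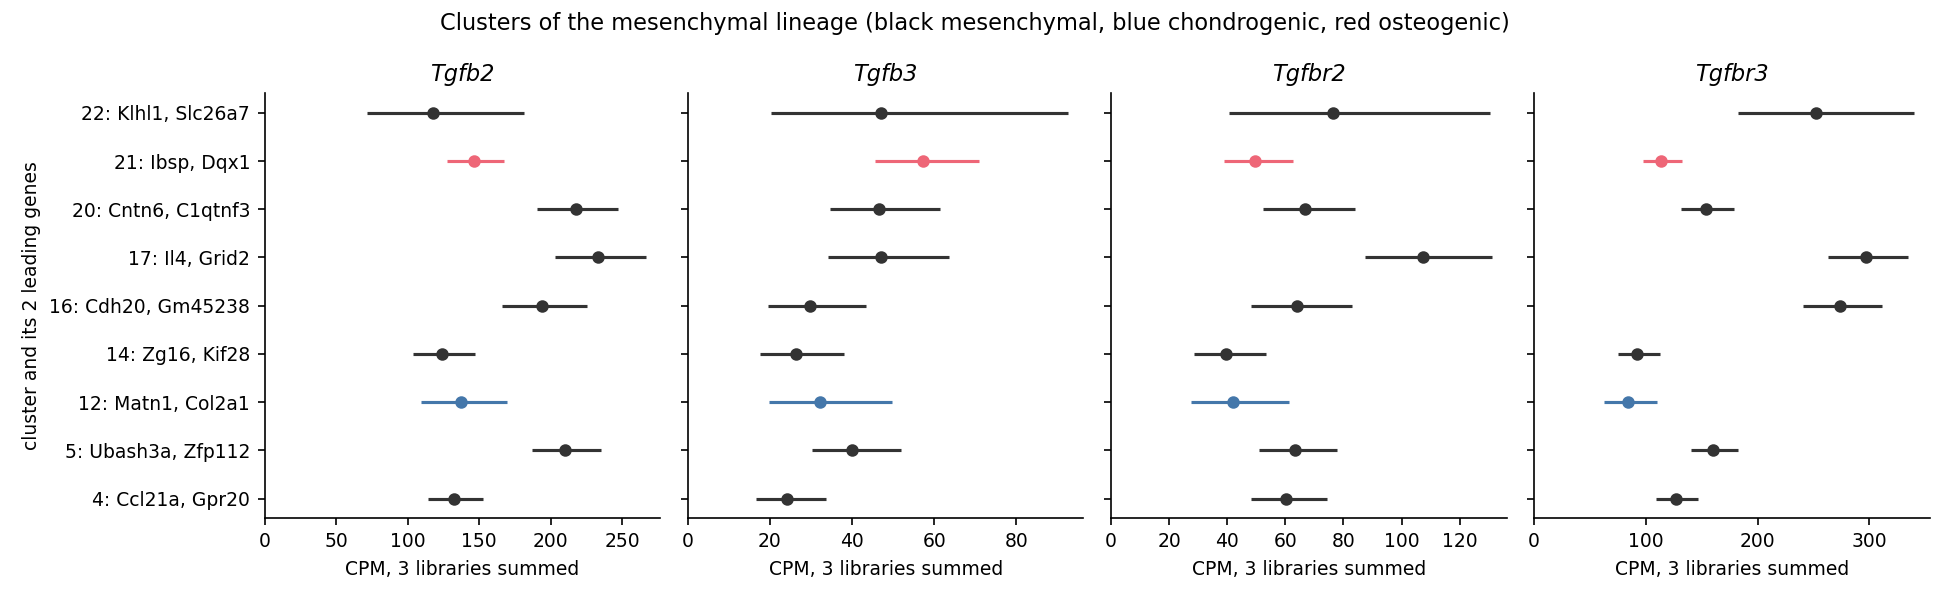
Levels of Tgfb2, Tgfb3, Tgfbr2 and Tgfbr3 (x axis, CPM over the 3 libraries summed, exact Poisson 95% intervals) in the 9 clusters of the mesenchymal lineage, each named by its number and 2 leading genes. Tgfbr3 runs from 83.8 CPM in the chondrogenic cluster 12 to 297 CPM in cluster 17.

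Mesenchymal cells of at least 1500 UMIs were also divided by Pax9, a transcription factor required for palate growth. There were 40, 155 and 313 cells with a Pax9 UMI and 185, 421 and 640 without. Cells with a Pax9 UMI were deeper, with medians of 3304, 3247 and 3755 UMIs against 2798, 2574 and 2769, and the part of depth in these folds was not tested. Tgfb2 was 179, 241 and 193 CPM with Pax9 and 108, 162 and 175 CPM without, and the fold was 1.66 (1.02 to 2.62), 1.49 (1.19 to 1.85) and 1.10 (0.938 to 1.29). Tgfb2 was higher in the Pax9 cells in 3 of 3 libraries, with an interval above 1 in the first 2. Tgfbr2 was also higher in 3 of 3 libraries, with folds of 1.47 (0.636 to 3.11), 1.48 (1.004 to 2.16) and 1.13 (0.879 to 1.45). Tgfbr3 was lower in Pax9 cells at E13.5 (0.632, 0.313 to 1.17) and higher at the later stages (1.54, 1.22 to 1.95, and 1.24, 1.07 to 1.44). The folds were 2.05, 1.23 and 0.756 for Tgfb1, 0.373, 0.837 and 1.07 for Tgfb3, and 0.717, 1.17 and 0.935 for Tgfbr1. Each of these 3 genes changed direction between libraries, and each interval included 1.

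The rest of the pathway was read from lists of 48 genes. The counts below stand beside the shares of all genes called either way, which were 35.7% in the epithelial contrast, 19.3% in the endothelial, 39% in the myeloid, 21.9% in the neural, 14.2% in the glial and 4.59% in the chondrogenic contrast. Of 16 latency and activation genes, 13 were tested in the epithelial contrast, with 1 higher and 8 lower and a median log2 difference of -1.14, against -0.01 over all genes. Itgb6, a subunit of the integrin that activates latent TGF-beta on epithelia, was the one higher (log2 difference 3.29 ± 0.44 SE, adjusted p = 0.00021, edgeR's quasi-likelihood test). Among the lower genes were the microfibril genes Fbn1 (-2.94) and Emilin1 (-3.46). In myeloid cells 2 of 11 were higher and 6 lower. Nrros, which anchors latent TGF-beta on macrophages and microglia, was higher in myeloid cells (log2 difference 6.96 ± 0.48 SE, adjusted p = 4.5e-45), as it was in endothelial cells (4.41 ± 0.57 SE, adjusted p = 3.2e-05). Thbs1, an activator of latent ligand, was also higher in myeloid cells (1.30). Ltbp1, which tethers latent ligand to the matrix, and Fbn1 were lower there (-4.22 and -3.89). In endothelial cells 1 of 12 was higher and 5 lower, among them Ltbp3 (-2.83) and Itgb5 (-2.72). The list gave 0 higher and 10 lower of 12 in neural cells, where 10.5% of all genes were lower, and 1 higher and 5 lower of 11 in glial cells, where 7.86% were lower. It gave 1 higher and 2 lower of 12 in chondrogenic cells.

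Of 6 co-receptors and receptor partners, 5 were tested in endothelial cells and 4 were higher, with a median log2 difference of 2.42 against -0.02 over all genes. Eng, the endothelial co-receptor endoglin, was 114, 186 and 192 CPM in endothelial cells and 3.38, 9.34 and 16 CPM in mesenchymal cells (log2 difference 4.03 ± 0.35 SE, adjusted p = 4.0e-07, edgeR's quasi-likelihood test). Acvrl1, the endothelial type I receptor ALK1, was also higher (2.46 ± 0.46 SE, adjusted p = 0.0010). In epithelial cells 2 of 3 tested were lower, Bambi, a pseudoreceptor (-1.45), and Zfyve9, which brings SMAD proteins to the receptors (-0.75). In myeloid cells Fkbp1a was higher (1.06) and Zfyve9 lower (-1.76) of 2 tested. Neural cells had 1 of 5 lower, glial cells 1 of 3 higher and chondrogenic cells 0 of 5 called. Of the 6 intracellular transducers, 0 of 6 tested were called in the epithelial contrast and 0 of 5 in the endothelial contrast, and 1 of 5 was higher in the myeloid contrast, Traf6 (1.71). Neural cells had 1 of 6 lower, and glial and chondrogenic cells 0 of 6 called.

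Of 10 inhibitors, all 10 were tested in the epithelial contrast, with 2 higher and 3 lower, a share of 5 in 10 beside 35.7% of all genes. Tgif1, a corepressor of SMAD proteins, and Skil, which encodes the SMAD repressor SnoN, were higher (1.96 and 0.81), and Pmepa1 (-1.60) and the ligand-binding proteoglycan gene Dcn (-1.41) among the lower. In myeloid cells Skil was the 1 of 9 that was higher (1.86), and 4 were lower, with Dcn (-5.49) and Smad6 (-2.45) among them. Dcn was the 1 of 9 called in endothelial cells (-2.38). The list had 2 of 10 lower in neural cells, 1 higher and 1 lower of 9 in glial cells and 0 of 9 called in chondrogenic cells. Of 10 target genes, 7 were tested in the epithelial contrast, with 2 higher, Cdkn1a (3.94) and Id1 (1.75), and 3 lower, Col1a1 (-4.55) and Tgfbi (-3.95) among them. Id1 is better known as a target of bone morphogenetic proteins. In the myeloid contrast 3 of 6 targets were higher, Cdkn1a (4.51) and Junb (2.81) among them, and 2 lower, Col1a1 (-3.88) and Snai2 (-3.37). In endothelial cells Ccn2 was higher (1.57) and Col1a1 (-2.51) and Tgfbi (-1.46) lower of 6 tested. Neural cells had 1 higher and 3 lower of 7, glial cells 3 lower of 5 and chondrogenic cells 2 higher and 1 lower of 6.

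From E13.5 to E15.5 in mesenchymal cells, 11 of 12 latency genes at 20 CPM or more had a log2 ratio above 0, 4 of them past 2-fold upward, with a median of 0.69. Of all 8073 genes at this level, 45.4% were above 0 and 9.23% past 2-fold upward. Among the 4 latency genes, Ltbp2 and Ltbp4 were under 20 CPM at E13.5 (1.13 and 11.3 CPM). They entered the count only through E15.5 (43.2 and 45.7 CPM). Ltbp2 had the highest ratio, from 1 UMI at E13.5 to 175 at E15.5, and Itgb8 the lowest (-0.80). Ltbp2 is among the top genes of mesenchymal cluster 5, which held 0 cells at E13.5 and 380 at E15.5. None of the 3 co-receptors at this level and 1 of 6 transducers, Smad3 (0.87), was above 0, and Traf6 was lowest (-0.96). Among the inhibitors 7 of 9 were above 0, from Ppm1a (-0.37) to Dcn (1.67), and among the targets 3 of 6, from Id1 (-0.43) to Col1a1 (2.70). The median over all genes was -0.07. These ratios have no replicate check, and the part of the change in the makeup of the class was not tested.

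The genes most like each member over 20 sums of class and library were found by Pearson's correlation of log2(CPM + 1) among 12466 genes, as a description, since sums of 1 library share its depth and handling. For Tgfb1 they were Selenop (0.93), Gas6 (0.88) and Mrc1 (0.87), the last a myeloid gate marker. For Tgfb2 they were Boc (0.93), Nfib (0.89) and Adcy2 (0.89), for Tgfb3 Acss3 (0.95), Fgfr1 (0.90) and Phka1 (0.90). For Tgfbr1 they were Trpv2 (0.86), Aim2 (0.86) and Adap1 (0.84), for Tgfbr2 Itpkb (0.87), Flna (0.86) and Lrch1 (0.86), and for Tgfbr3 Rassf8 (0.95), Lama2 (0.93) and Sh3pxd2a (0.92). Among the members, Tgfb1 with Tgfbr2 (0.80) and Tgfb2 with Tgfb3 (0.72) had the highest correlations, and Tgfbr1 with Tgfbr3 the lowest (-0.60).

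In thinned mesenchymal cells, UMIs of both signalling receptors, Tgfbr1 and Tgfbr2, were found in 1 of 225, 9 of 576 and 20 of 953 cells. The product of the separate shares would give 2.24, 5.30 and 14.8 cells. A cell can hold a transcript and give no UMI of it, so these counts do not measure how many cells express both.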

How the data were processed

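Droplet libraries of palatal shelf cells were analysed from raw UMI counts per gene and barcode, deposited by the authors. The file headers name Cell Ranger 6.1.2. The build was mm10 per the submitters' processing notes, and the annotation is not given in the sources used here. Barcodes with under 500 genes (1321) or over 20% mitochondrial UMIs (0) were left out. Scrublet's own threshold called only 5 cells, so 190 cells of highest doublet score were dropped, a share of 0.8% per 1000 cells. Gates used 10 markers a class. Their thresholds were settled on marker counts, not on the members. Leiden clusters (scanpy 1.11.5, igraph 0.11.9, resolution 1) were made without the members and pathway genes. Contrasts used edgeR 4.0.16 (TMM, filterByExpr) on counts summed per library and class, where each library held at least 10 cells. The residual holds the spread over stages. On simulated counts the epithelial contrast, with 9203 genes tested, recovered 32.3% of 2-fold and 93.8% of 4-fold changes, and the endothelial contrast, with 8013 genes, 16.3% and 70.5%. The simulated counts had 1 mesenchymal profile for all stages, a fixed dispersion and changed genes only above a minimum mean count. Their spread between libraries was thus set and not taken from the data, and recovery for members with few UMIs was not measured. Stage ratios had 1 CPM added for log2 values. Intervals are 95%. Members and lists were chosen with earlier results of these data known. Of each list, up to 2 called genes with the largest rise and fall per contrast were named, and the largest rise and fall between stages. Alternatives were DESeq2 1.42.0, filters, gates, clusters, scaling and leaving out each library. The promoter table held 4 of 6 members, Tgfbr1 with 2 starts, of which the first was used. UMIs of pooled embryos are not independent animals, and p-values rest on the spread between libraries, with 2 residual degrees of freedom per gene and more borrowed across genes (4.53 in the neural to 13.8 in the endothelial contrast, and no limit in the myeloid contrast, whose p-values therefore use a spread shared by all genes).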

Additional observations from a re-analysis of the deposited data

Results flagged for a closer look

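Tgfb2 moved in opposite directions from E13.5 to E15.5 in 2 classes. The fold was 1.55 in mesenchymal cells and 0.504 in epithelial cells, with counting intervals on opposite sides of 1. With clusters in place of gates the epithelial log2 ratio was -0.38. The difference between the classes was not tested, since each stage is 1 library. Within simple nasal epithelial cells the fold was 0.488 (0.323 to 0.734) and within stratified cells 1.17 (0.353 to 6.09). Within mesenchymal cluster 4 it was 0.647 (0.356 to 1.12). The last 2 intervals included 1.

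Tgfbr1 gave a fold of 0.796 in mesenchymal cells and 1.89 in neural cells from E13.5 to E15.5, again with intervals on opposite sides of 1 and with no test of the difference. Neural cells of the 2 stages lay mostly in different clusters, with 72.2% of those at E15.5 and 1.80% of those at E13.5 in cluster 2. Within neural cells of cluster 2, a subset chosen after the data had been seen, the fold was 0.741 (0.548 to 1.01), and the interval included 1.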

How the results depend on the processing

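Of 282 alternative values of the member contrasts, 242 kept their direction and their side of the threshold, 26 lost and 2 gained a call and 12 turned, all of the last without a call. Of 239 stage values 229, and of 444 shares of cells 351, moved by less than their error.

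Genes called fell under DESeq2 to 2011 from 3375 (epithelial), 924 from 1551 (endothelial), 2081 from 3149 (myeloid), 638 from 1059 (glial) and 226 from 410 (chondrogenic), and chondrogenic cells gave 817 with no filter and 245 with the looser gate (2 markers, since the lead could not go below 1). Without 1 library they ranged over 1899 to 4122 (epithelial), 916 to 1742 (endothelial), 1536 to 3856 (myeloid), 1119 to 3633 (neural, 2467 with all) and 311 to 1637 (glial).

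As log2 differences from mesenchymal cells, epithelial Tgfb2 turned to 0.015 with the stricter gate (4 markers, a lead of 2), 0.20 with clusters and 0.0098 with at least 1000 genes a cell, and epithelial Tgfbr2 was called at -0.69 with no filter and -0.84 with clusters. Endothelial Tgfb2 was not called at -0.92 with DESeq2 or -0.52 with no doublets left out, and endothelial Tgfbr1 turned to -0.018 with DESeq2 and -0.12 with no filter. Tgfbr2 was not called in myeloid cells at 0.75 (DESeq2) and 0.79 (no filter), nor in glial cells at -1.76 (DESeq2), -1.32 (stricter gate) and -0.75 (clusters). Chondrogenic Tgfb2 turned to 0.082 (looser gate) and 0.037 (1000 genes) and Tgfb3 to 0.17 (clusters). Chondrogenic Tgfbr3 was not called at -0.68 (DESeq2), -0.65 (stricter gate), -0.73 (clusters) and -0.61 (1000 genes).

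Without 1 library, epithelial Tgfb2 ranged over -0.45 to 0.44, Tgfb3 over -2.501 to -1.45 and Tgfbr1 over -0.29 to 0.042. Endothelial Tgfb2 ranged over -0.97 to -0.79 and Tgfbr1 over -0.23 to 0.12, and myeloid Tgfbr2 over 0.31 to 1.08. Neural Tgfb3 ranged over -2.04 to -1.63 and Tgfbr1 over 0.81 to 1.41. Glial Tgfb2 ranged over -2.26 to -2.04, Tgfbr2 over -1.89 to -1.54 and Tgfbr3 over 1.09 to 1.85. Chondrogenic Tgfb2 ranged over -0.37 to 0.22 and Tgfbr3 over -0.79 to -0.62.

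As log2 stage ratios, epithelial Tgfb2 was -0.52 (stricter gate) and 0.64 (clusters) from E13.5 to E14.5, -0.38 (clusters) to E15.5 and -0.38 (stricter gate) between the later stages. In mesenchymal cluster 4, added after seeing the data, Tgfb2 was 0.28, -0.62 and -0.90 for the same pairs of stages, Tgfbr1 -0.66 for the longest and Tgfbr2 -0.55 for the first and 1.63 for the last. The cause was not tested.

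Between stages, no paired analysis was possible because each stage is 1 library. The cell type contrasts compare classes within each library, through the library term. The osteogenic and muscle contrasts had under 10 cells in a library and were not run, and the fits with at least 1000 genes (endothelial and myeloid) and the stricter gate (endothelial) could not be made. Depth limits the small classes: those of 12 to 18 cells at E13.5 give levels from 0 to 18 UMIs of a member.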
